A study of Rattus norvegicus with 12 samples.

Results

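Conjugating enzymes join a small, water-attracting group to a reactive or fat-soluble compound so that the compound can be inactivated and carried out of the cell. The genes described here were those with a symbol of the glutathione transferases (Gst of the alpha, kappa, mu, omega, pi, theta or zeta class, and the membrane-bound Mgst), the sulfotransferases (Sult) or the glucuronosyltransferases (Ugt1 and Ugt2). Members were taken by symbol, among probe sets that carry exactly 1 gene, but the families themselves were picked with earlier results of these data known. It gave 46 of the 18166 genes measured: 22 cytosolic or organellar glutathione transferases, 4 membrane-bound ones, 12 sulfotransferases and 8 glucuronosyltransferases, all of the last from the Ugt2 families. Each of the 46 had 1 probe set. A further 7 probe sets that list several genes of these families were not used, and neither Gstz1 nor any Ugt1 gene was analysed here.

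The tissue was urinary bladder of female Sprague Dawley rats of about 3 months. In the 6 denervated samples the ganglia on both sides had been frozen during surgery, 10 days before, and the 6 sham samples had surgery without the freezing. RNA of each sample was read on 1 array, which gave a log2 expression value per gene and array. Whether every array had a rat of its own is not stated in the labels, so p-values measure the spread between these samples, which may in part be technical.

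Glutathione transferases add glutathione to electrophiles such as lipid peroxidation products and epoxides, and several of them also reduce peroxides. Sulfotransferases move sulfate from the activated donor PAPS onto phenols, catecholamines and steroids, and glucuronosyltransferases add glucuronic acid from UDP-glucuronic acid to many of the same substrates. The lining of the bladder is exposed to excreted compounds, and in humans inherited loss of GSTM1 is known as a risk factor for bladder cancer.

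Smooth muscle makes up nearly all of the tissue by its labels, yet markers of other cells were bright. All 21 measured urothelial markers lay above the median gene, and 18 of them fell after denervation while Krt14, a basal keratin, rose. Of 15 measured smooth muscle markers 11 fell and 1 rose, of 8 Schwann cell markers 6 fell and 0 rose, and of 16 monocyte and macrophage markers 15 rose and 0 fell. In an extract of whole tissue, fewer cells of a type and less RNA per cell cannot be told apart. One denervated array, replicate 2, lay between the groups. Its score on the leading principal component (58.0% of the variance) was -5.84, while the remaining denervated arrays scored 25.9 to 42.5 and sham arrays -30.2 to -22.5. Its values are given separately below where they differ from those of its group.

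The promoter stretches of 5 genes are shown here because they belong to the members with the largest falls (Sult1a1, Gstm7, Sult1d1 and, of the alpha class, Gsta4) and to Gstm5, a bright gene of the same mu cluster as Gstm7 that was not called. Each is the 250 bases before the annotated start of the gene in RefSeq (GRCr8), 5′ to 3′ on the strand of the gene. Capitals mark the letters of the antioxidant response element, TGACNNNGC, to which NRF2 is known to bind, and of the core of the xenobiotic response element, GCGTG, to which the aryl hydrocarbon receptor is known to bind, on either strand. Sult1a1 lies at chr1:190706113-190706362 (minus strand), Gstm7 at chr2:198260320-198260569 (minus strand), Sult1d1 at chr14:20720829-20721078 (plus strand), Gsta4 at chr8:87947015-87947264 (plus strand) and Gstm5 at chr2:198219519-198219768 (plus strand).
Sult1a1: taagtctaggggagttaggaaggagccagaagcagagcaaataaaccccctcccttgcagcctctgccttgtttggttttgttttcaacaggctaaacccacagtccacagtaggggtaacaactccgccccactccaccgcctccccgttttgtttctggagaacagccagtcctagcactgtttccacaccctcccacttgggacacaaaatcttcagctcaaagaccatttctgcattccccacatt
Gstm7: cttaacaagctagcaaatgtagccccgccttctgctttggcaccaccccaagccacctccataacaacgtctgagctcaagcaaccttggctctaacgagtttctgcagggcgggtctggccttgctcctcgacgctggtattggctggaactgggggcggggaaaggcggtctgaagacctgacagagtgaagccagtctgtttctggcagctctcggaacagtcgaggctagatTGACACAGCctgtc
Sult1d1: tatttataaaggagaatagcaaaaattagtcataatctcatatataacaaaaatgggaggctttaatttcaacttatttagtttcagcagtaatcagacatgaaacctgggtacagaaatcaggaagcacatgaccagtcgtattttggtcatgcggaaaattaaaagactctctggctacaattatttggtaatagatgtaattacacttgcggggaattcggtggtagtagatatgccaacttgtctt
Gsta4: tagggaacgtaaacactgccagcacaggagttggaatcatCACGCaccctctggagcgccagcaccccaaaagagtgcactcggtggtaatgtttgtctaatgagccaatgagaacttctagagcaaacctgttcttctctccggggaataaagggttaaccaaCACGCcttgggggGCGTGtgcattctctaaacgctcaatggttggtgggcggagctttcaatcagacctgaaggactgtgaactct
Gstm5: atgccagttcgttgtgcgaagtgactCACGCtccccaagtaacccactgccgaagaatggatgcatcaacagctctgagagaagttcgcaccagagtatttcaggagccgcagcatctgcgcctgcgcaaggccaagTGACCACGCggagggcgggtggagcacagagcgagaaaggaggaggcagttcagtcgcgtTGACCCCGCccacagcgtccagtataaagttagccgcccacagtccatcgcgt
Neither motif was found in the Sult1a1 and Sult1d1 windows. The Gstm7 window holds 1 antioxidant element, which begins 14 bases before the start, and the Gsta4 window 3 copies of the xenobiotic core. The window of Gstm5, the uncalled gene, holds 2 of each motif, and 1 of its xenobiotic cores lies inside an antioxidant element. Promoters were matched for 42 of the 46 genes. The antioxidant element was in 5 of them (11.9%) and in 10.1% of 33469 promoter windows of the same length, and the xenobiotic core in 10 (23.8%) and in 25.9%. A match describes letters only, and it shows no binding.

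The comparison of denervated with sham bladders asks which of these genes respond to the loss of nerves. After denervation 18 of the 46 conjugating enzyme genes fell, 1 rose and 27 were not called (limma, adjusted p under 0.05 over all 18166 genes). Among all genes 28.7% were called, 16.9% lower and 11.9% higher, while the members' shares were 39.1% lower and 2.17% higher. The falls came from the glutathione transferases, with 15 of 26, and the sulfotransferases, with 3 of 12. None of the 8 glucuronosyltransferases fell by that test. The median change over the 46 genes was -0.17 on the log2 scale, against -0.04 over all genes. The groups were fully separated, with the denervated arrays lower, in 11 members (23.9%), against 7.59% of all genes. They were separated with the denervated arrays higher in 0 members and in 5.76% of all genes, or 13.3% of all genes in either direction.

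**Figure D1:**
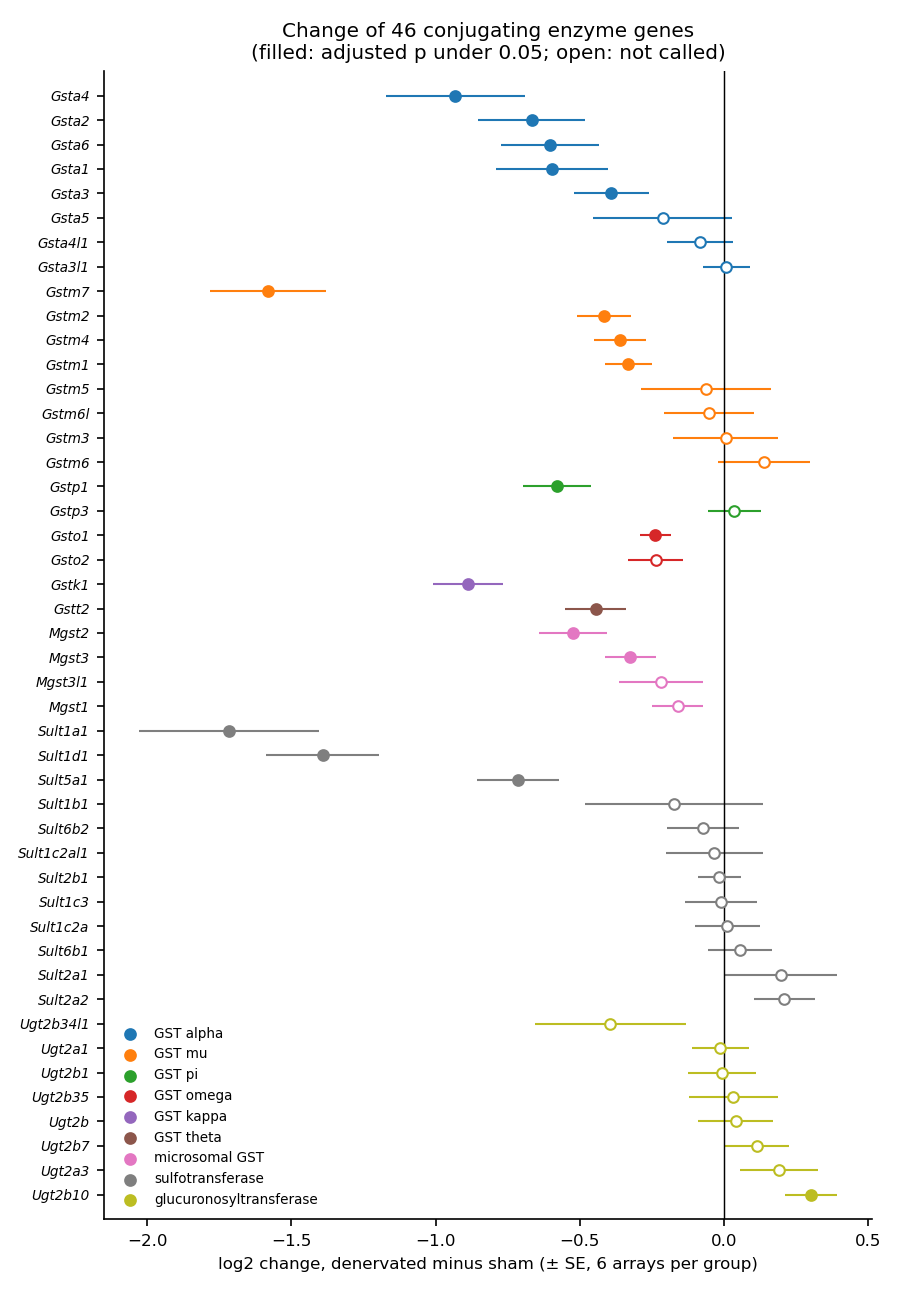
Log2 change of each of the 46 conjugating enzyme genes, denervated minus sham, with its standard error from the limma fit (6 arrays per group), by enzyme class. Filled points are genes with an adjusted p under 0.05 over all genes: 18 lie below 0, and Ugt2b10 lies above it.

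Brightness divided the family. The table carries no detection calls, and the only guide to whether a gene was measured above background is its level. Of the 46 members 19 were brighter than the median gene (6.84 on the log2 scale) and 27 dimmer, a split made after the values were seen. All 19 bright members had a change below 0, from -1.72 to -0.06. Of them 16 fell (84.2%), whereas 25.9% of all genes brighter than the median fell. Of the 27 dim members Gsta2 and Gsta3 fell, Ugt2b10 rose and 24 were not called. Their median change was -0.01. Among all genes brighter than the median 15.0% rose, and among all dim genes 7.82% fell and 8.68% rose.

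**Figure D2:**
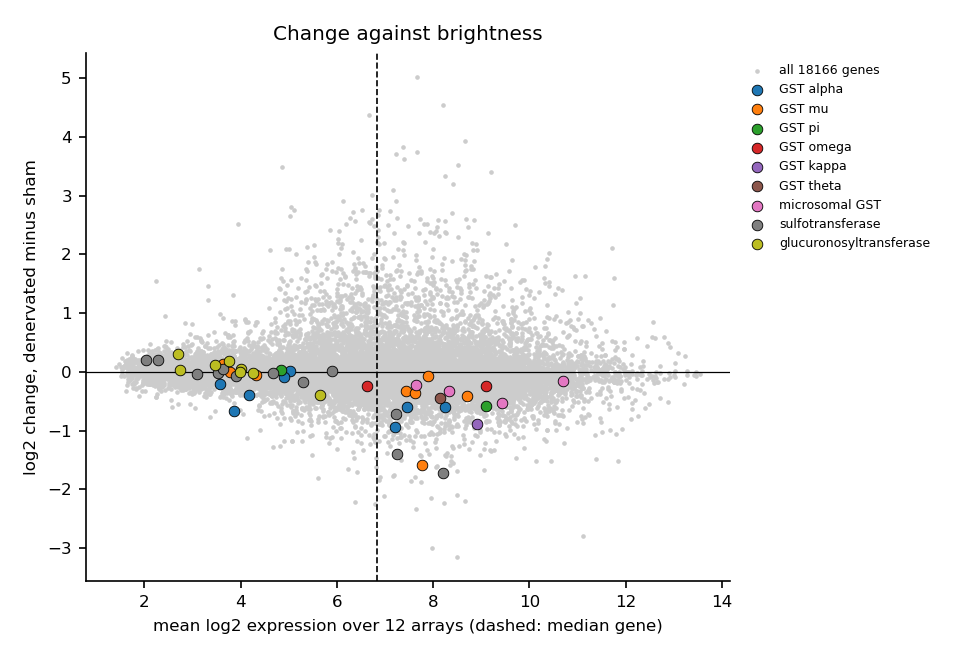
Log2 change, denervated minus sham, against the mean log2 expression over the 12 arrays, for all 18166 genes (grey) and the 46 conjugating enzyme genes (coloured by class). The 19 members to the right of the dashed line at 6.84, the median gene, all lie below 0, while the 27 to its left are spread about 0 with a median of -0.01.

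Among the members brighter than the median, every denervated array lay below every sham array on average. The mean deviation from the sham mean over these 19 genes was -0.43, -0.37, -0.79, -0.60, -0.84 and -0.80 in denervated replicates 1 to 6, against -0.09 to 0.06 in the 6 sham arrays. Replicate 2 was thus the mildest of the denervated arrays here, but replicate 1 lay close to it. Of the 18 members that fell, replicate 2 was the highest denervated array for 10, and without it 17 fell.

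**Figure D3:**
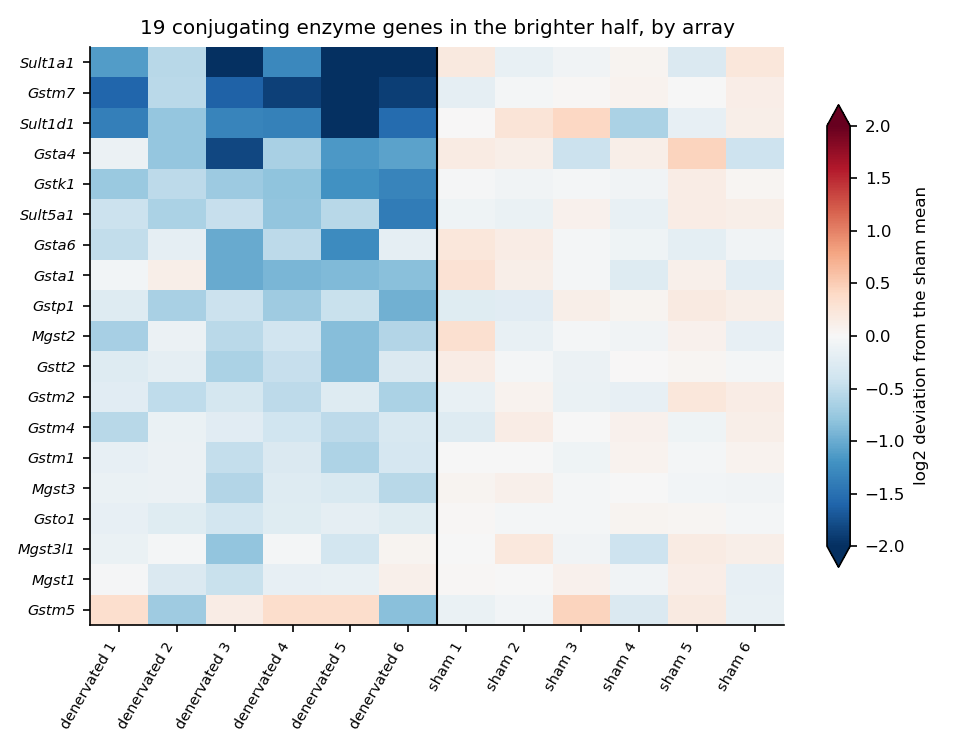
Deviation of each array from the sham mean (log2, colour scale limited to -2 and 2) for the 19 conjugating enzyme genes brighter than the median gene, with the 6 denervated arrays on the left and the 6 sham arrays on the right. Sult1a1, Gstm7 and Sult1d1 are blue in all 6 denervated arrays and palest in replicate 2. Gstm5 is blue in denervated replicates 2 and 6 only.

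Sult1a1, the phenol sulfotransferase that acts on many phenols and on drugs such as paracetamol, fell most. Its log2 values in denervated replicates 1 to 6 were 7.93, 8.50, 6.80, 7.78, 6.39 and 6.65, against 9.26, 8.92, 8.99, 9.12, 8.78 and 9.29 in the sham replicates. The groups did not overlap, and the denervated arrays were spread far more widely than the sham arrays. The mean was 7.34 ± 0.84 in denervated and 9.06 ± 0.20 in sham bladders (SD, n = 6 each). This is 3.29-fold lower, a change of -1.72 ± 0.31 (SE, limma adjusted p = 0.00142).

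Sult1d1, known in mice for sulfating catecholamines, fell 2.62-fold. It stood at 6.57, 7.16, 6.61, 6.58, 5.95 and 6.39 in denervated replicates 1 to 6, against 7.94, 8.19, 8.36, 7.30, 7.77 and 8.05 in sham replicates. Only the highest denervated and the lowest sham value, 7.16 and 7.30, came near each other. The change was -1.39 ± 0.20 (limma adjusted p = 0.000336).

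Sult5a1 fell too, to a mean of 6.87 ± 0.36 in denervated bladders against 7.59 ± 0.13 in sham bladders (SD, n = 6 each), by 0.71 ± 0.14 on the log2 scale (limma adjusted p = 0.00241). Denervated replicate 6, at 6.20, was its lowest array, and the other 5 lay between 6.79 and 7.15, below the sham range of 7.44 to 7.74. The fall of Sult1a1 exceeded that of Sult5a1 by 1.00 log2 units (exact permutation p = 0.0130, adjusted p = 0.0260 over 10 gene pairs compared, of which 2 held a dim gene and are not read here). Sult1a1 had the largest fall of all members in these same arrays, so this p-value gives no independent support.

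The other 9 sulfotransferases were dimmer than the median and not called. They included Sult1b1, which sulfates thyroid hormones, Sult2b1, which sulfates cholesterol and related sterols, and Sult2a1 and Sult2a2, whose family sulfates bile acids and steroids in the liver. Their changes lay between -0.17 and 0.21. Sult1b1 is a neighbour of Sult1d1 on chromosome 14. It varied widely within each group, from 4.67 to 5.83 in denervated and from 4.38 to 6.37 in sham bladders. Its change was -0.17 ± 0.31, and at this level it is not shown to be above background.

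**Figure D4:**
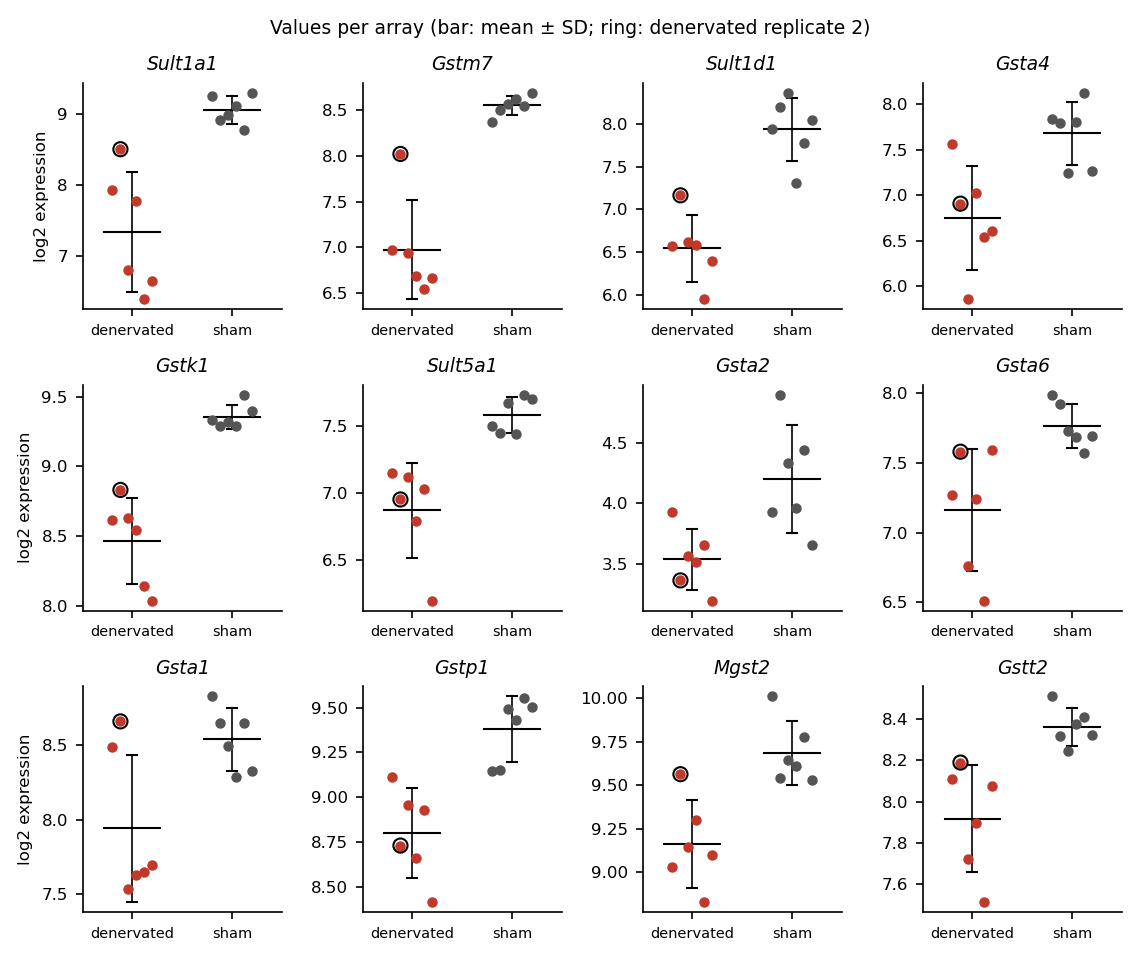
Log2 expression on each array for the 12 called members with the largest change, with denervated arrays (red) left of sham arrays (grey), bars at the mean ± SD, n = 6 each, and a ring on denervated replicate 2. Sult1a1, Gstm7, Sult1d1, Gstk1, Sult5a1, Gstp1 and Gstt2 show groups that do not overlap, while in Gsta1 denervated replicates 1 and 2 lie within the sham range. Each panel has its own vertical scale, which does not start at 0.

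The mu class of glutathione transferases held the largest fall of the glutathione enzymes. All 8 mu genes lie in 1 stretch of chromosome 2, where Gstm7 stands between Gstm6l and Gstm6. Gstm7 stood at 6.98, 8.02, 6.94, 6.68, 6.55 and 6.67 in denervated replicates 1 to 6, against 8.38, 8.51, 8.58, 8.63, 8.55 and 8.69 in sham replicates. Replicate 2 lay more than 1 log2 unit above the other 5 denervated arrays and still below all sham arrays. The fall was 2.99-fold, a change of -1.58 ± 0.20 (limma adjusted p = 0.000188), and -1.79 without that array.

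Gstm1, Gstm2 and Gstm4, further members of the same cluster, fell by 0.33 ± 0.08, 0.42 ± 0.09 and 0.36 ± 0.09 (limma adjusted p of 0.00828, 0.00485 and 0.00935). In Gstm1 and Gstm2 the groups did not overlap. Denervated values were 7.00 to 7.49 for Gstm1 and 8.29 to 8.68 for Gstm2, against 7.52 to 7.68 and 8.75 to 9.14 in sham bladders. The fall of Gstm7 was larger than those of Gstm1, Gstm2 and Gstm4 by 1.25, 1.16 and 1.22 log2 units (exact permutation p of 0.00216, 0.00866 and 0.00216, adjusted over the 10 pairs to 0.0108, 0.0260 and 0.0108). Of 924 splits of 6 against 6 arrays, the smallest p they can give is 0.00216. Gstm7 had the largest fall of its class in these same arrays, so these p-values give no independent support for its larger fall.

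Gstm5, also bright, was not called (-0.06 ± 0.22). Its denervated values fell into separate ranges: 8.25, 8.06, 8.27 and 8.26 in replicates 1, 3, 4 and 5, and 7.20 and 7.08 in replicates 2 and 6. Sham values lay between 7.63 and 8.36, so the upper denervated values were inside the sham range and the lower ones outside it. Gstm7 fell by 1.52 more than Gstm5 (exact permutation p = 0.0108, adjusted p = 0.0260). The remaining mu genes, Gstm3, Gstm6 and Gstm6l, were dim and not called, with changes from -0.05 to 0.14. The mu genes have close copies, and their probes may share signal.

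Genes of the alpha class, whose enzymes detoxify lipid hydroperoxides and their breakdown products, fell in 5 of 8 cases, where 16.9% of all genes fell. The 5 include Gsta2 and Gsta3, which were dim. The count was 3 with any of sham replicates 1, 2, 3 and 5 or of denervated replicates 3 and 4 left out. Gsta4, known for its action on the lipid peroxidation product hydroxynonenal, stood at 7.56, 6.91, 5.86, 7.03, 6.53 and 6.60 in denervated replicates 1 to 6, against 7.84, 7.80, 7.25, 7.80, 8.12 and 7.27 in sham replicates. Only denervated replicate 1 reached into the sham range. The fall was 1.91-fold (-0.93 ± 0.24, limma adjusted p = 0.0108). That of Gsta1 was not shown to differ from it, with a difference of -0.33 ± 0.22 between them (exact permutation p = 0.165, adjusted p = 0.206).

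Gsta1 and Gsta6, both bright, fell by 0.60 ± 0.20 and 0.60 ± 0.17 (limma adjusted p of 0.0349 and 0.0171). Gsta1 stood at 8.49 and 8.66 in denervated replicates 1 and 2 and at 7.53 to 7.69 in the other 4, against 8.28 to 8.83 in sham bladders. Its first pair of values was thus at sham level. Gsta6 was between 6.51 and 7.59 in denervated and between 7.57 and 7.99 in sham bladders, with replicates 2 and 6 highest among the denervated arrays.

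Gsta2 and Gsta3 were dim, with means of 3.54 and 3.98 in denervated bladders, against 4.20 and 4.37 in sham bladders. At these levels neither their changes (-0.67 and -0.39) nor the size of them can be read with certainty. Gsta3l1, Gsta4l1 and Gsta5 were dim too and not called, at -0.21 to 0.01. The calls of Gsta1 and Gsta3 did not hold with single arrays left out. For Gsta1 the limma adjusted p became 0.0539 to 0.0784 when any of sham replicates 1, 2, 3 and 5 or of denervated replicates 3 to 6 was left out. For Gsta3 it became 0.0505 to 0.0857 when any of sham replicates 1 to 5 or of denervated replicates 2 to 4 was left out. Alpha genes also have close copies.

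The single genes of other classes fell as well. Gstk1, the kappa enzyme of mitochondria and peroxisomes, stood at 8.62, 8.83, 8.63, 8.55, 8.14 and 8.04 in denervated replicates 1 to 6, against 9.29 to 9.51 in sham bladders. Sham arrays were tightly grouped and all lay above the denervated ones. It fell 1.85-fold (-0.89 ± 0.12, limma adjusted p = 0.000294). Gstp1, the pi enzyme abundant in epithelia, fell by 0.58 ± 0.12 (limma adjusted p = 0.00283), with 8.41 to 9.12 in denervated and 9.14 to 9.55 in sham bladders, whereas its dim neighbour Gstp3 was not called (0.03). Gstt2, of the theta class, fell by 0.44 ± 0.11 (limma adjusted p = 0.00716). It lay at 7.51 to 8.19 in denervated and 8.24 to 8.51 in sham bladders, without overlap.

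Gsto1, an omega enzyme that reduces dehydroascorbate and methylated arsenic, showed a small but even fall. Its values were 9.05, 8.97, 8.84, 8.97, 9.04 and 8.97 in denervated replicates 1 to 6, against 9.17 to 9.26 in sham bladders. The change was -0.24 ± 0.05 (1.18-fold lower, limma adjusted p = 0.00447). Its neighbour Gsto2, dimmer than the median gene, had a change of -0.24 ± 0.10 that was not called (limma adjusted p = 0.0809). Denervated replicate 3, at 6.88, stood above the other 5 (6.33 to 6.51), and without it Gsto2 was called lower (-0.31, limma adjusted p = 0.00938).

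The membrane-bound transferases were all bright. Mgst2, which can make leukotriene C from its epoxide precursor, fell by 0.52 ± 0.12 (limma adjusted p = 0.00509), with 8.83 to 9.56 in denervated and 9.53 to 10.01 in sham bladders. Denervated replicate 2 alone reached the sham range. Mgst3 fell by 0.33 ± 0.09 (limma adjusted p = 0.0141), with 7.90 to 8.38 in denervated and 8.42 to 8.59 in sham bladders.

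Mgst1, the brightest of the 46 genes and a transferase and peroxidase of the endoplasmic reticulum and outer mitochondrial membrane, was not called. It stood at 10.75, 10.48, 10.34, 10.62, 10.62 and 10.88 in denervated replicates 1 to 6, against 10.61 to 10.91 in sham bladders (-0.16 ± 0.09, limma adjusted p = 0.204). The groups overlapped, and its values kept within a narrow range. The changes of Mgst2 and Mgst3 were lower than that of Mgst1 by 0.36 and 0.16, which the test did not separate (exact permutation p of 0.0693 and 0.197, adjusted p of 0.0989 and 0.219). Mgst3l1 was not called either (-0.22 ± 0.15).

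The 8 glucuronosyltransferases of the Ugt2 families, which in liver conjugate steroids, bile acids and drugs, were all dimmer than the median gene. Their means over the 12 arrays ran from 2.69 to 5.65, and 7 were not called, with changes between -0.40 and 0.19. The call of Ugt2b10 (0.30 ± 0.09, limma adjusted p = 0.0232) rested on the dimmest of them. It stood at 2.52 to 3.05 in denervated and 2.39 to 2.65 in sham bladders, near the bottom of the scale, and it was lost without sham replicate 1 (limma adjusted p = 0.0543) or denervated replicate 3 (0.0514). Neither change nor absence of change can be read from genes at these levels.

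Markers of cell types moved alongside the falls. The mean log2 level over the 21 urothelial markers was 9.64 to 9.97 in denervated and 10.31 to 10.52 in sham bladders. Over the 15 smooth muscle markers it was 10.70 to 11.37 in denervated and 11.39 to 11.56 in sham bladders, with denervated replicate 2 highest of its group, and over the 8 Schwann cell markers 7.77 to 8.54 and 8.87 to 8.99. That over the 16 monocyte and macrophage markers was 9.01 to 9.86 in denervated and 8.08 to 8.24 in sham bladders. Of 11 fibroblast markers 5 rose and 1 fell, of 10 adipocyte markers 1 rose and 2 fell, and of 8 mast cell markers 2 rose and 1 fell. The mean levels of these last lists overlapped between the groups, and single arrays move the small counts of the adipocyte and mast cell lists. With an array left out, 8 to 11 smooth muscle markers fell and 4 to 7 fibroblast markers rose. Of the Schwann cell markers 5 then fell, or 6 without denervated replicate 2. The part of these cells in the changes of the conjugating enzymes was not tested.

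Genes of related pathways are set beside the shares of all genes, 16.9% lower and 11.9% higher. For the supply of glutathione, of 13 measured genes of synthesis and recycling 4 fell, 2 rose and 7 were not called. Both subunits of the enzyme that limits the rate of synthesis fell, Gclc by 0.49 ± 0.09 and Gclm by 0.37 ± 0.06 (limma adjusted p of 0.00111 and 0.000949), as did the reductase Gsr (-0.34) and Ggt6 (-0.27). Slc7a11, which imports cystine for it, and Oplah, which recycles oxoproline to glutamate, rose (1.02 and 0.45). Of 17 genes for the breakdown and export of conjugates 6 fell and 4 rose. With any of sham replicates 1, 2, 4, 5 and 6 or of denervated replicates 3 to 5 left out, 4 fell. Without sham replicate 3 or denervated replicate 1, 5 fell. Of the pumps known to export glutathione conjugates, Abcc3 and Abcc5 fell slightly (-0.22 and -0.23, limma adjusted p of 0.0459 and 0.0388). Abcc1 (0.03) and Abcc4 (0.01) were not called. Abcb1a and Abcb1b, close copies of each other known for exporting unconjugated drugs, went opposite ways, by -1.01 ± 0.12 and 1.70 ± 0.20 (limma adjusted p of 0.000129 and 0.000142). The peptidases Anpep (1.45) and Cndp2 (0.74) rose.

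Of 18 relatives of the glutathione transferases that the symbol rule leaves out, 3 fell and 4 rose, against 16.9% and 11.9% of all genes, so the share that fell was near that of all genes. Within the Clic family, which has a transferase-like fold, Clic3 fell (-1.15) while Clic1 (0.55), Clic2 (0.46) and Clic4 (0.33) rose. Hpgds, the prostaglandin D synthase (-0.86), and Gdap1 (-0.66) fell, and Alox5ap, which helps leukotriene synthesis, rose (0.55). Without denervated replicate 2, 5 of the 18 relatives fell. Only 2 fell when any of sham replicates 2, 3, 4 and 6 or of denervated replicates 1, 3, 4, 5 and 6 was left out.

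Glutathione peroxidases rose where they were called. Of 17 genes of that list 4 rose, all of them peroxidases: Gpx3, secreted into plasma (0.91 ± 0.28), Gpx7 (0.68), Gpx1, the cytosolic enzyme (0.54 ± 0.11), and Gpx8 (0.45). Etfdh and Esd fell (-0.25 and -0.21). Leaving out 1 of sham replicates 1, 4 and 5, or denervated replicate 5, left 1 fall, and leaving out denervated replicate 6 gave 4 falls. With any of sham replicates 1 and 2 or of denervated replicates 1, 3, 4 and 5 left out, 3 genes rose. Without denervated replicate 2 or 6, 5 rose. In denervated replicate 2 Gpx3, Gpx7 and Gpx8 stood at 9.63, 7.83 and 7.28, close to their sham means of 9.65, 7.87 and 7.31. Denervated replicate 6 also lay within the sham range for Gpx3 (9.75) and Gpx7 (8.00), so for these genes 4 of the 6 denervated arrays stood above all sham arrays.

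For sulfation, Papss2, which makes the sulfate donor PAPS, rose by 0.84 ± 0.24 (limma adjusted p = 0.0167), in the same bladders in which Sult1a1 and Sult1d1 fell. In denervated replicates 2 and 6 it was at 7.62 and 7.84, against 7.41 to 7.84 in sham bladders. Of the 24 measured genes of sulfate supply and removal 6 rose and 4 fell, against 11.9% and 16.9% of all genes, so the share that fell was near that of all genes. Arsj, a sulfatase (0.95), and Tpst2, which sulfates tyrosines of secreted proteins (0.51), rose, and Suox, which makes sulfate from sulfite, fell by 0.73 ± 0.07 (limma adjusted p = 5.56e-05). For glucuronides, Gusb, the lysosomal enzyme that cleaves them, rose by 0.60 ± 0.10 (limma adjusted p = 0.000961). Hk2 (0.27) and Pgm1 (0.21) rose, Slc35d2 fell (-0.29) and 6 of the 10 were not called, Ugdh among them. That list's counts varied. Without sham replicate 1 or 2, 1 rose, and with any other array but denervated replicate 2 left out, 2 rose. With any of sham replicates 1, 2 and 5 or of denervated replicates 3 and 4 left out, 0 fell. Without denervated replicate 2, 3 fell, and without denervated replicate 6, 2 fell.

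Enzymes of other detoxifying reactions were mostly lower where called. Of 24 measured genes 8 fell, 1 rose and 15 were not called. The gene that rose was Nnmt, a methyltransferase of nicotinamide (0.53). Leaving out any of sham replicates 1, 2, 4 and 5 or of denervated replicates 1, 3 and 5 ended its call. Aldh3a1, an aldehyde dehydrogenase of surface epithelia, fell by 1.10 ± 0.15, the quinone reductase Nqo2 by 0.83 ± 0.24, the mitochondrial Aldh2 by 0.75 ± 0.16 and the epoxide hydrolase Ephx1 by 0.57 ± 0.10 (limma adjusted p from 0.000241 to 0.0206).

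NRF2 is the factor known to switch on many glutathione transferases. Genes of a list of NRF2, its regulators and its usual targets were called about as often as genes at large. Of 26 measured 5 fell, 4 rose and 17 were not called, against 16.9% lower and 11.9% higher among all genes. Bach1, on the list as a regulator and not as a target, was among the genes that rose (0.48). Hmox1, which breaks down heme, rose by 1.37 ± 0.14 and Slc7a11 by 1.02 ± 0.14, while Ephx1, Gclc, Me1, Gclm and Gsr fell by 0.34 to 0.57. Of 19 xenobiotic receptors and their direct readouts 6 fell and 0 rose (1 without denervated replicate 2). These included Cyp1a1 and Ahrr, both targets of the aryl hydrocarbon receptor (-2.33 ± 0.40 and -1.09 ± 0.11), the retinoid receptor Rxrg (-1.08) and Ppara, the fatty acid receptor (-0.64).

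**Figure D5:**
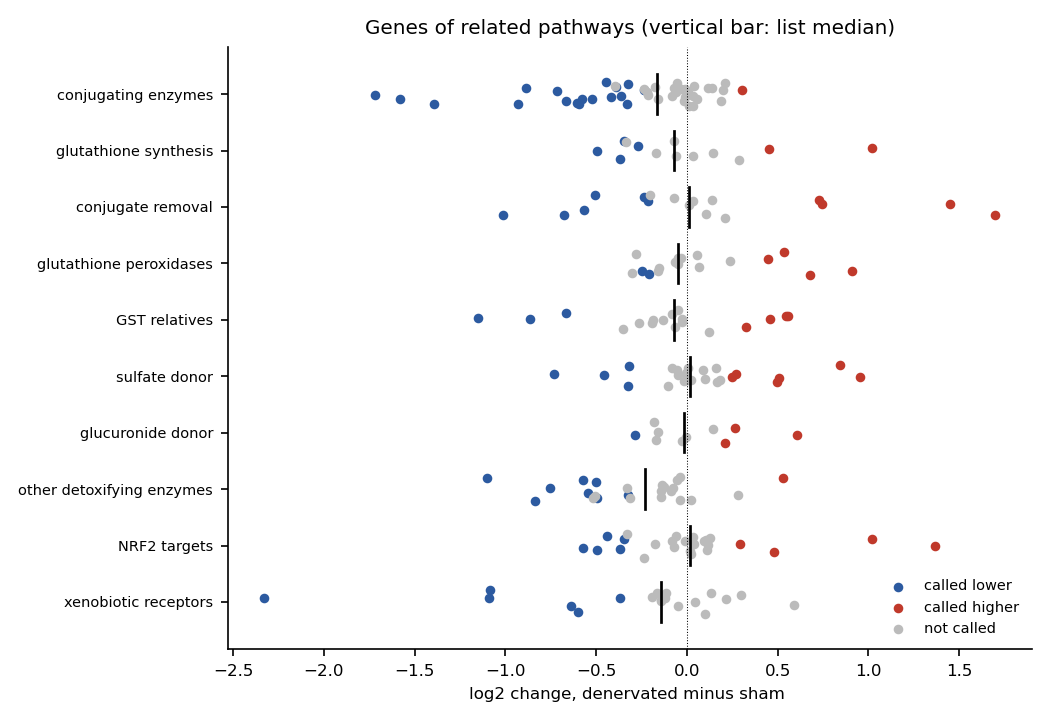
Log2 change, denervated minus sham, of each gene of the conjugating enzymes and of 9 related lists (blue: called lower; red: called higher; grey: not called; height within a row is random; vertical bars are list medians). The median of the conjugating enzymes is -0.17 and that of the other detoxifying enzymes -0.23. The row of NRF2 targets, which also holds regulators of NRF2, has its median at 0.02.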

How the data were processed

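RNA of 6 denervated and 6 sham bladders was measured on 1 Affymetrix array each. The deposited values are log2 expression, made by the authors with RMA in Affymetrix Expression Console 1.4.1.46, per the submitters' processing notes, and were tested as deposited. The number of arrays limits the precision. Of 36685 probe sets 19086 were named by the platform annotation, and 575 of these list several genes. Of the 18511 with 1 gene, 18394 matched RefSeq (GRCr8) by gene ID. The probe set with the highest mean stood for each of 18166 genes.

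The comparison used lmFit and eBayes of limma 3.58.1 (R 4.3.3), two-sided. The p-values of all genes were adjusted together (Benjamini-Hochberg), 0.05 was the threshold, and the fit was tested on simulated data. Differences between 2 members used exact two-sided permutation tests over arrays. The pairs followed no rule set beforehand. Several set the largest fall of a class against another member, so their p-values give no independent support. All members were eligible to be named, with up to 4 called genes of the largest change per related list. Gsr, Ggt6, Etfdh, Esd, Nnmt, Me1, Bach1, Ugdh, Clic1, Clic2, Clic4 and the Abcc pumps, and Gclm among the NRF2 targets, were named after their values were seen. The members and lists were chosen with earlier results of these data known. Replicate numbers did not pair the samples: correlations of same-numbered deviations were -0.11 to 0.10. Alternatives covered normalization, centring, dim genes, the variance model, array weights, probe sets, a minimum change, a replicate block and each array left out.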

Additional observations from a re-analysis of the deposited data

Results flagged for a closer look

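Among 208 groups of 6 arrays tested, 14 held an array separated from the others by more than Dixon's 95% limit for 6 samples allows, and 9 of these arrays were denervated replicate 2. Chance gives about 1 in 20 groups. Among the conjugating enzymes, denervated replicate 2 stood at 8.02 for Gstm7, where the rest of its group lay at 6.55 to 6.98, and at 4.74 for Gsta3l1, against 5.03 to 5.19. Denervated replicate 3 stood at 6.88 for Gsto2 (others 6.33 to 6.51) and at 3.20 for Ugt2b35 (2.59 to 2.79). Sham replicate 3 stood at 3.40 for Ugt2b35 (others 2.38 to 2.69), and sham replicate 2 at 2.76 for Sult2a1 (1.94 to 2.16).

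In the related and marker lists, denervated replicate 2 stood at 8.43 for Alox5ap (other denervated arrays 8.82 to 8.94), at 8.68 for Anpep (9.52 to 9.79), at 12.11 for Lyz2 (12.74 to 13.05), at 6.92 for Cdh19 (4.48 to 5.15), at 6.76 for Gdap1 (5.25 to 5.71), at 12.22 for Gsn (10.66 to 11.08) and at 5.86 for Rxrg (4.61 to 5.03). Sham replicate 6 stood at 11.06 for Mylk (other sham arrays 10.77 to 10.86).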

How the results depend on the processing

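The count of conjugating enzyme genes that fell was 16 to 18 in all settings but one, and 16 to 18 with each array left out. When a change of at least 1.2-fold was required (limma's treat), 4 fell and 0 rose, with 1252 genes of all called, 756 higher and 496 lower. With the dimmest 25% of genes left out, Ugt2b10, Gsta2 and Gsta3 were themselves removed, which left 0 higher. Their calls were thus not tested in that setting. With single arrays left out, 0 to 1 rose. Over all genes, leaving out an array gave 4374 to 6273 calls. Same-numbered samples were not paired. With the replicate number as a block, 18 conjugating enzyme genes fell and 0 rose, and 4460 genes were called. The change of Gstm5, not called in any setting, was 0.16 with array weights and -0.15 to 0.092 with an array left out, and that of Sult1b1 was -0.38 to 0.022. In both the cause was not tested. The table has no detection calls, so the dim members, among them all glucuronosyltransferases, cannot be told from background.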
